A study of Mus musculus with 3 samples.

Results

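The 67 genes described here are the mouse histone cluster genes, the genes whose symbol begins with Hist and a number and that have at least 1 protein-coding isoform. They were picked by name from the 55450 annotated genes in the tables, of which 21901 have a protein-coding isoform, and the rule uses names and isoform types alone. By the class given in the symbol, 6 encode linker histone H1, 18 encode H2A, 18 encode H2B, 12 encode H3 and 13 encode H4. The Hist1 cluster on chromosome 13 holds 54 of them, the Hist2 cluster on chromosome 3 holds 10, the Hist3 cluster on chromosome 11 holds 2, and Hist4h4 lies alone on chromosome 6.

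The RNA was that held on chromatin in macrophages differentiated in culture from the bone marrow of C57BL/6J mice. All 3 libraries were of 1 condition: Lipid A, an activator of Toll-like receptor 4, at 100 ng/ml for 12 h, removal for 12 h, and Lipid A at 100 ng/ml again for 120 min. RNA depleted of ribosomal RNA was sequenced from an input of 1 µg in replicate 1, 250 ng in replicate 2 and 500 ng in replicate 3. The labels call them biological replicates but name no separate animals, so each SD below is the spread between these samples and may be technical. No control cells were analysed here, so every value is a level in this condition alone.

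H2A, H2B, H3 and H4 form the protein core around which DNA is wrapped in the nucleosome, and H1 binds the DNA between cores. Most copies of these genes are switched on in S phase, when newly made DNA needs histones, and their mRNA ends in a short stem-loop in place of a poly(A) tail. The stem-loop is bound by SLBP, and cleavage just past it by a complex with the U7 small nuclear RNA makes the mRNA end. Because the tail is missing, these mRNAs are captured by total RNA libraries and largely lost from poly(A)-selected ones. Macrophages in culture divide slowly or not at all, depending on growth factor and stimulus.

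A search of the GENCODE M21 transcripts on mm10 for a perfect stem of 6 base pairs that opens with GG around a loop of 4 bases that opens with TTT found the histone stem-loop in 44 of the 67 genes (65.7%). Among the 21834 other genes with a protein-coding isoform, 24 held such a motif (0.110%). Only annotated transcripts were searched, so a stem-loop past the end of a model would be missed and no match does not mean that the gene lacks one. Some genes with no match have short models, such as Hist1h4k of 312 bases and Hist1h2bl of 381, while Hist2h2be, of 2620 bases, had none either. The 5′ arm of the stem read GGCTCT in all 4 H1, 11 H2A, 10 H2B and 8 H3 genes with a match, while the 11 H4 genes had GGCCCT in 9 genes of the class, Hist1h4h and Hist4h4 among them, and the arm GGTCCT in 2. The sites of 7 genes on which the results below turn are shown with the stem-loop in capitals and up to 5 flanking bases. They are given as DNA in the sense of the transcript, from 5′ to 3′.
Hist1h1c: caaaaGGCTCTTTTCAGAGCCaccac
Hist2h2ac: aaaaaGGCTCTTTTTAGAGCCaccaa
Hist3h2a: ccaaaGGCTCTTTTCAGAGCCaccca
Hist1h2bg: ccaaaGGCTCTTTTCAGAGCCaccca
Hist1h3e: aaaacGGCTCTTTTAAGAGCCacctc
Hist1h4h: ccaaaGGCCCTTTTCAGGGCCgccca
Hist4h4: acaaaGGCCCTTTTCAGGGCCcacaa
The stem-loops lie at chr13:23739512-23739527 on the plus strand for Hist1h1c, chr3:96220418-96220433 on the minus strand for Hist2h2ac, chr11:58955172-58955187 on the plus strand for Hist3h2a, chr13:23571843-23571858 on the plus strand for Hist1h2bg, chr13:23561903-23561918 on the minus strand for Hist1h3e, chr13:23531458-23531473 on the plus strand for Hist1h4h and chr6:136803998-136804013 on the minus strand for Hist4h4.

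The annotated models differ in how far they run past this site. The distance from the stem-loop to the end of the model had a median of 112.5 bases over the 44 genes and ran from 3 to 4884. It was 57 bases in Hist2h2ac and 46 in Hist1h4h. It was 1643 bases in Hist3h2a, 2445 in Hist4h4, 1153 in Hist1h1e and 4884 in Hist1h1d. In all, 18 genes had models running 200 bases or more past the stem-loop.

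The whole family was rare in these libraries. The alignment-based gene table held 10293545, 17820066 and 17548564 expected counts in replicates 1, 2 and 3, of which the 67 genes took 777, 1037 and 1076. That is 0.00755% (95% exact binomial interval 0.00703% to 0.00810%), 0.00582% (0.00547% to 0.00618%) and 0.00613% (0.00577% to 0.00651%), intervals that cover counting error only. In TPM, a relative level scaled by transcript length and library size, the genes summed to 113, 124 and 115 (117 ± 5.96, SD, n = 3). The 3 libraries lay close together on this scale. These are shares of the RNA held on chromatin, and how much histone RNA the whole cells held was not measured here. In such RNA pooled from many cells, fewer cells in S phase and less histone RNA per cell cannot be told apart.

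A gene counted as expressed when its TPM was 1 or more in all libraries, and 17 of the 67 genes were, against 42.2% of all genes with a protein-coding isoform. They were 6 H2A, 6 H4, 4 H2B and 1 H1 gene, and none was an H3 gene. At least 3 counts in every library were found for 24 genes, against 52.9% of all such genes, and no H3 gene was among them. In the alignment-based table, no count in any library was found for 5 genes, against 32.6% of all such genes, and at this depth a count of 0 allows up to 2.91e-05% of the counts of replicate 1 and 1.68e-05% of those of replicate 2. These 5 include Hist1h1t, the testis-specific linker histone, and Hist1h2aa and Hist1h2ba, the testis-specific H2A and H2B. The others are Hist1h2bl and Hist2h3c1. That limit holds only where reads can be assigned to the gene. Of the stretches of 31 bases in Hist1h2bl, 88.6% occur in another member, and all those in Hist2h3c1 occur in genes outside the family. In the read-based table Hist1h1t had 1 count and Hist1h2bl 1.40, both in replicate 2. Over the family the mean TPM was under 1 for 42 genes.

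**Figure D1:**
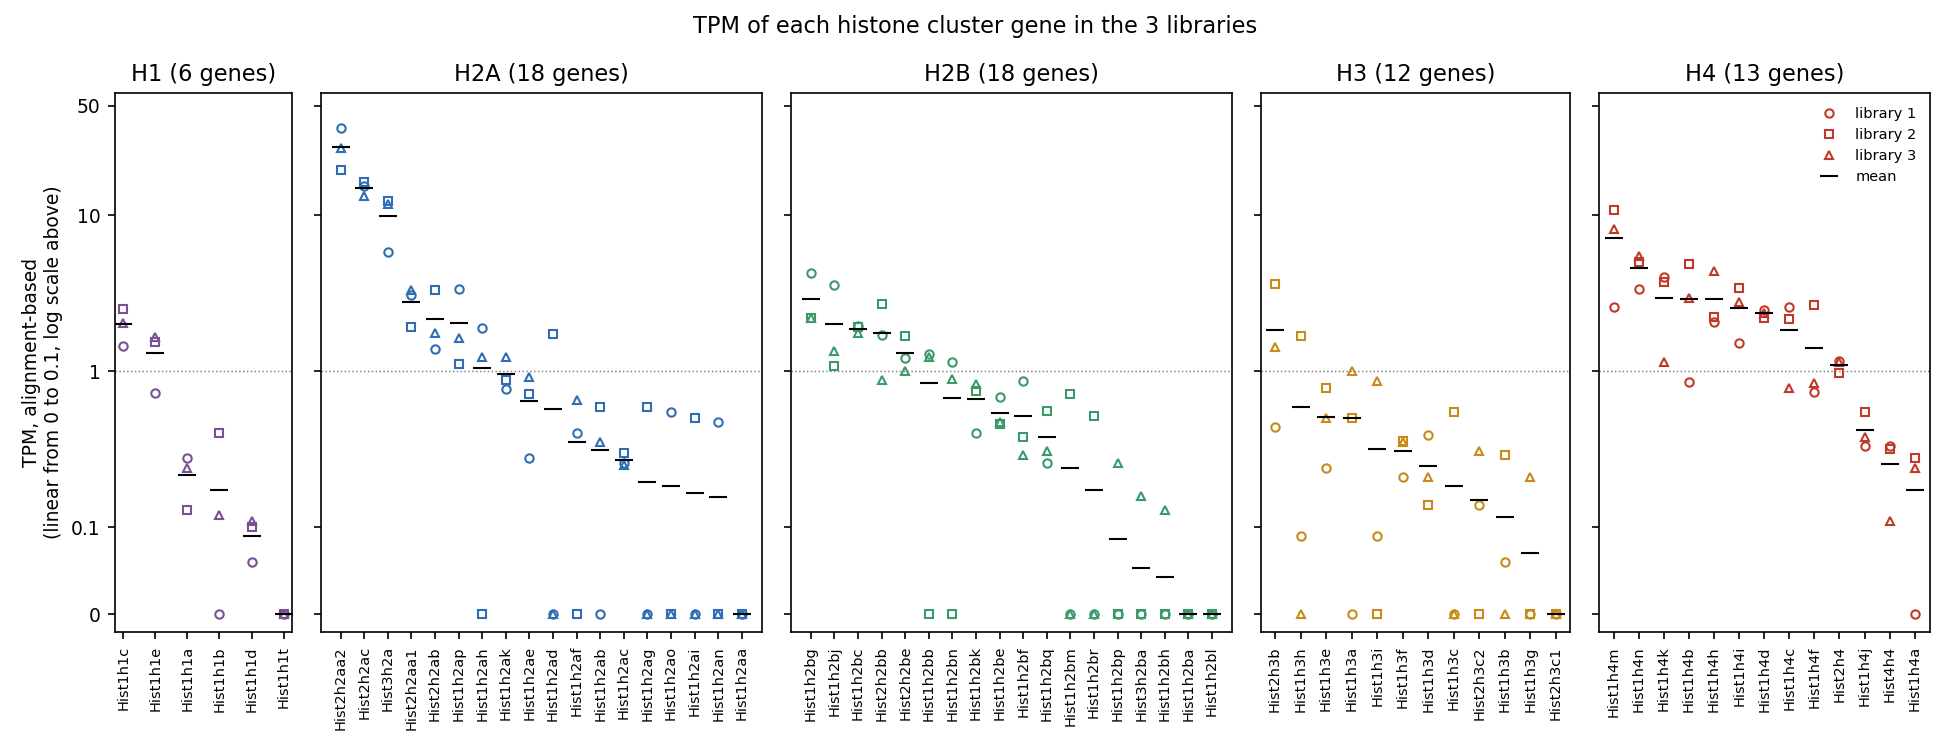
TPM of all 67 histone cluster genes from the alignment-based gene table, by class and in order of the mean; each symbol is 1 of the 3 libraries, black bars are means, and the dotted line marks a TPM of 1. The axis is linear from 0 to 0.1 and logarithmic above. A few H2A genes stand above all the others, with Hist2h2aa2 between 19.4 and 36.0, while the highest H3 gene, Hist2h3b, reaches 3.63 in 1 library only.

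By class, H2A gave the largest summed TPM in every library and H4 came next. H2A summed to 69.6, 59.5 and 63.1 in replicates 1, 2 and 3 (64.1 ± 5.12, SD, n = 3), 54.8% ± 6.79 of the family's TPM. H4 summed to 22.0, 39.1 and 30.8 (30.6 ± 8.54), or 25.9% ± 6.07. H2B summed to 17.4, 13.0 and 11.8 (14.0 ± 2.95), below H4 in every library. H3 summed to 1.66, 7.93 and 4.87 (4.82 ± 3.14) and H1 to 2.52, 4.67 and 4.17 (3.79 ± 1.13). H1 was above H3 in replicate 1 and below it in the others, so the order of these classes is within their spread.

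The lead of H2A over H4 rested on genes that share their position with another gene. A total of 7 members lie wholly within the span of another annotated gene, and 3 of them, Hist2h2aa2, Hist3h2a and Hist2h2aa1, are among the 4 highest H2A genes. These 7 genes held 47.9, 44.8 and 47.1 TPM (46.6 ± 1.62). Without them H2A summed to 24.8, 26.0 and 21.2 (24.0 ± 2.48) and H4 to 21.1, 34.2 and 27.8 (27.7 ± 6.53). H4 was then the higher class in replicates 2 and 3 and H2A in replicate 1, so the ranges overlapped. Without those genes H2B was 12.3 ± 2.96 and H3 was 2.99 ± 1.59, and 14 of the remaining 60 genes were expressed. Whether the counting used strand is not given in the sources used here, and the part of the overlapping genes in these values was not tested.

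Among H2A genes, Hist2h2aa2 (chr3:96239749-96240276, minus strand) was the highest of the whole family. Its TPM was 36.0, 19.4 and 26.9 in replicates 1, 2 and 3 (27.5 ± 8.32), from 167, 82.6 and 129 counts. It lay highest in replicate 1 and lowest in replicate 2, and its SD of log2 CPM (counts scaled to library size), 0.85, was the largest of all members with at least 10 counts. The whole of it lies opposite Gm20632, annotated as antisense, which had a TPM of 2.49 ± 0.78. All of its 31-base words also occur in another member, and its near-copy Hist2h2aa1 (chr3:96245497-96246082, plus strand) had only 3.06, 1.93 and 3.29. Genes outside the family also hold all of the 31-base words of Hist2h2aa2 and 89.7% of those of Hist2h2aa1. Among the latter's neighbours, Gm20634 covers 90.3% of Hist2h2aa1 on the same strand and had 76.8, 93.5 and 71.1 counts. The split of reads between these copies, and between them and such genes, is therefore uncertain. Together both copies had 39.1, 21.4 and 30.2 TPM (30.2 ± 8.87), with the same order of libraries as Hist2h2aa2 alone. Summing them does not remove the sharing with genes outside the family.

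Hist2h2ac (chr3:96220361-96220880, minus strand) had the smallest SD of TPM of the 3 highest H2A genes. On the log2 CPM scale its SD, 0.46, was larger than that of Hist3h2a, 0.37. Its TPM was 15.4, 16.2 and 13.2 (14.9 ± 1.59), from 70, 67 and 61.3 counts. Of its bases, 27.1% lie opposite Gm44492, annotated as a miRNA, and 51.4% of its 31-base words occur in another member. Hist3h2a (chr11:58954685-58956830, plus strand) had 5.76, 12.2 and 11.7 (9.89 ± 3.59) from 141, 359 and 382 counts, lowest in replicate 1. It lies inside Trim17 on the same strand, with 708 of its bases in Trim17 exons, and Trim17 had 2.52 ± 0.33 TPM. Only 3.31% of the 31-base words of Hist3h2a occur in another member. Together Hist2h2aa2, Hist2h2ac and Hist3h2a held 44.7% ± 6.01 of the family's TPM and 50.3% ± 2.47 of its counts. Of the 13 H2A genes in the Hist1 cluster only Hist1h2ap was expressed, at 3.36, 1.11 and 1.63 TPM, and the 13 summed to 6.89 ± 0.95. The 4 H2A genes of the Hist2 cluster, all expressed, summed to 47.3 ± 7.73.

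H4 was spread over more genes. Hist1h4m (chr13:21811746-21812147, plus strand) was the highest at 2.58, 10.7 and 8.19 TPM (7.17 ± 4.17), from 8, 25.9 and 22.4 counts. Replicate 1 stood apart from the others for this gene, but the authors' deposited interval there ran from 0.211 to 5.56 TPM and met the lower end of that in replicate 2, 5.24. Hist1h4n followed at 3.35, 5.02 and 5.47 (4.61 ± 1.12), and Hist1h4k, the shortest model of the class, at 4.02, 3.71 and 1.15 (2.96 ± 1.58). These 3 share 86.2% to 91.7% of their 31-base words with other members. Hist1h4i, at 1.52, 3.39 and 2.76, and Hist1h4h, at 2.07, 2.22 and 4.38, were expressed as well. The highest H4 gene held 21.9% ± 8.85 of its class, compared with 42.3% ± 9.56 for the highest H2A gene and 20.1% ± 4.05 for Hist1h2bg in H2B.

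The H2B genes were all low. Hist1h2bg (chr13:23571396-23572013, plus strand) had 4.28, 2.19 and 2.20 TPM (2.89 ± 1.20), and Hist1h2bj had 3.58, 1.08 and 1.35 (2.00 ± 1.37). Both were highest in replicate 1. Hist1h2bc had 1.96, 1.92 and 1.75 (1.88 ± 0.11), the libraries lying close together. Hist2h2be had 1.22, 1.69 and 1.01 (1.31 ± 0.35). Hist3h2ba had a single count, in replicate 3.

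Of the linker histones, Hist1h1c (chr13:23738808-23740367, plus strand), which encodes H1.2, and Hist1h1e, which encodes H1.4, carried most of the signal. Hist1h1c had 1.45, 2.51 and 2.04 TPM (2.00 ± 0.53) and held 53.4% ± 4.32 of the class. Hist1h1e had 0.73, 1.53 and 1.66 (1.31 ± 0.50), lowest in replicate 1. Its model shares 496 exonic bases with that of Hist1h2be on the same strand, so reads there can be given to either. Hist1h1a had 0.28, 0.13 and 0.24 TPM from at most 2 counts in a library.

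The 12 H3 genes held 14.3, 39.2 and 32.9 counts in all, too few to rank them. Hist2h3b had 0.44, 3.63 and 1.42 TPM, and it lies wholly opposite Gm20628, annotated as antisense, at 0.63 ± 0.10 TPM. Hist1h3e had 0.24, 0.78 and 0.50, and Hist1h3h had 0.09, 1.68 and 0, with an estimate of 0.30 counts in replicate 1. Hist2h3c1, listed at 0, lies wholly within the exons of Gm20634 on the same strand, which had 2.00 ± 0.40 TPM.

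The deposited TPM gives short models a larger value per count in some libraries than in others. In the alignment-based table the effective length of long models was the annotated length less 149.72, 256.82 and 251.26 bases in replicates 1, 2 and 3, and somewhat less was taken off short ones. Hist1h4m, of 402 bases, had effective lengths of 253.03, 155.16 and 159.19, so the same share of counts gives it a higher TPM in replicates 2 and 3 than in replicate 1. With rescaling to genes with a protein-coding isoform alone, H4 was 103 ± 19.1 and H2A 221 ± 39.1. With annotated lengths in place of effective ones as well, H4 was 63.0 ± 2.66 and H2A 162 ± 49.6, H2B 36.7 ± 16.1, H1 12.4 ± 2.38 and H3 10.2 ± 4.32. The order of the class means was H2A, H4, H2B, H1, H3 on that scale. Counts leaned further to long models: the 18 genes with an isoform of 1000 bases or more held 18.9% ± 3.30 of the family's TPM and 57.2% ± 10.5 of its counts. By single isoform, those of 1000 bases or more held 18.8% ± 3.19 of the TPM in the alignment-based transcript table and 27.5% ± 3.82 in the read-based one.

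The median SD of log2(CPM + 0.5) over the 35 members with at least 10 counts was 0.32, and that over 1437 other genes with a protein-coding isoform was 0.35. Those genes had a mean CPM between 0.401 and 1.44, the quartiles of the members, which run lower and higher. After Hist2h2aa2, the largest were Hist1h2bj at 0.75, Hist1h4c at 0.71, Hist1h2ap at 0.70 and Hist1h2bg at 0.69. Hist1h4c had 2.56, 2.15 and 0.78 TPM, lowest in replicate 3.

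In TPM, the second quantification, made from the reads without a genome alignment, put the family lower, and in shares of counts it did not. Here the read-based transcripts were summed by gene, and both tables were set to a TPM total of 1000000 over genes with a protein-coding isoform before the ratio was taken. The log2 ratio of read-based to alignment-based sums was -0.53, -0.82 and -0.89 in replicates 1, 2 and 3 (-0.75 ± 0.19, SD, n = 3). By class it was -0.87 ± 0.16 for H2A, -0.78 ± 0.25 for H4, -0.87 ± 0.66 for H3, -0.43 ± 0.28 for H1 and -0.22 ± 0.13 for H2B, below 0 in each library for each class. The H2A and H4 values overlap, and that of H2B was nearer to 0 than those of H2A and H4 in every library. Much of the H2A difference lay in Hist2h2aa2, with mean rescaled TPM of 96.0 alignment-based and 42.3 read-based, beside 221 and 123 for the class. Its log2 ratio was -0.89, -1.65 and -1.41 in replicates 1, 2 and 3. Without members wholly within the span of another gene, H2A was 24.0 ± 2.48 alignment-based and 21.8 ± 2.05 read-based in TPM as deposited. With them it was 64.1 and 48.2. The direction depended on the scale. For the whole family the log2 ratio was -0.31 ± 0.22 with TPM as deposited and 0.09 ± 0.01 with estimated counts as a share of those of genes with a protein-coding isoform, above 0 in every library. On that last scale the ratio was 0.69 ± 0.08 for H1, 0.78 ± 0.22 for H2B and 0.32 ± 0.16 for H4, with H2A still below 0 at -0.38 ± 0.11 and H3 at -0.23 ± 0.43. With the TPM as deposited H1 was 0.01 ± 0.31 and H2B 0.22 ± 0.11. For long models the read-based effective lengths were shorter than annotated by 135.98, 206.21 and 219.18 bases, less than in the other table in each library.

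**Figure D2:**
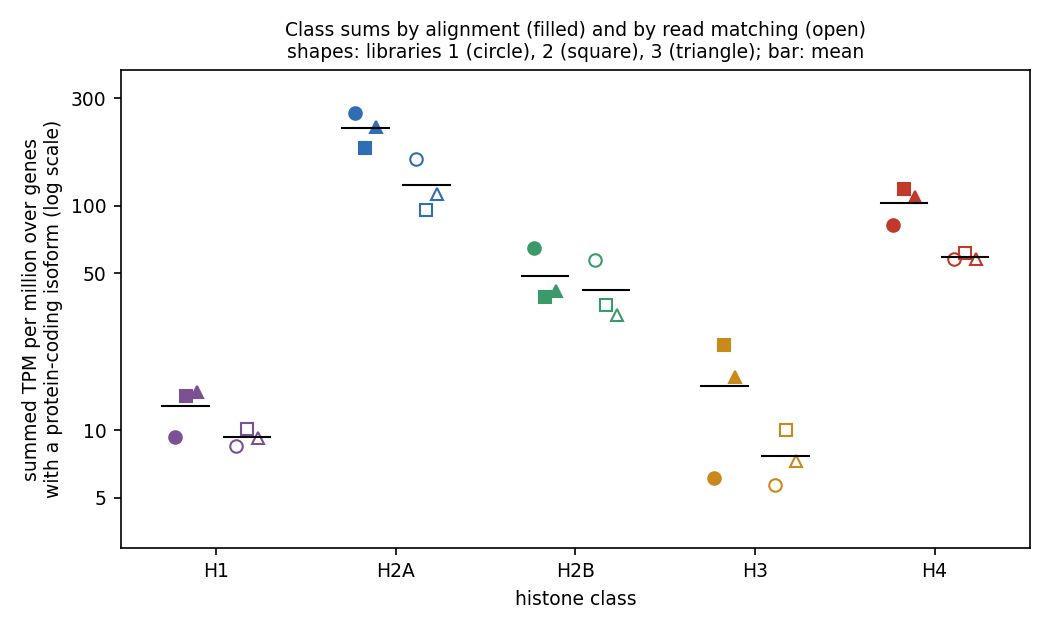
Summed rescaled TPM of each histone class over genes with a protein-coding isoform, on a log axis, from the alignment-based (filled) and the read-based (open) quantification; symbols are the 3 libraries and bars are means. H2A is the highest class and H4 the next in both, and the alignment-based mean exceeds the read-based mean in each class, by least in H2B.

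Single genes differed in both directions. The ratio was examined for the 46 members with a mean rescaled TPM of at least 1 in either table, and the others were too low. The read-based value was at least 2-fold higher in every library for 4 members, where 22.9% of all genes so examined were, and at least 2-fold lower in every library for 3 members, where 0.226% of all genes were. Without replicate 1, the count of lower members was 8. By the same measure, 16 members were expressed in the read-based table, where 51.8% of all genes with a protein-coding isoform were. The median log2 ratio of the 46 members was -0.75, beside 0.08 over the 12687 genes with a value in the alignment-based table.

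The 4 members that were higher were Hist4h4, Hist1h1d, Hist1h2bq and Hist1h2bh, and all have models of more than 1000 bases. Hist4h4 (chr6:136801553-136804415, minus strand) went from 0.33, 0.32 and 0.11 TPM in the alignment-based table to 2.01, 1.77 and 2.28 in the read-based one, from 11, 13 and 5 counts to 102, 125 and 168. The groups do not overlap, and the log2 ratio was 2.71 ± 1.04 after rescaling. Its model of 2863 bases runs 2445 bases past the stem-loop, and 11.4% of its 31-base words occur in genes outside the family. Hist1h1d, an H1.3 gene with a model of 7425 bases, had 0.06, 0.10 and 0.11 TPM beside 0.53, 0.89 and 0.83 read-based, a log2 ratio of 2.63 ± 0.16. Hist1h2bq had 0.26, 0.56 and 0.31 beside 1.13, 1.93 and 1.68, a log2 ratio of 1.68 ± 0.28. Of its 30.5, 84.6 and 72.2 read-based counts, 17.6, 73.5 and 56.1 lay in an isoform annotated as nonsense-mediated decay. Of its 31-base words, 98.3% occur in another member, so the split of reads between these copies is uncertain. Hist1h2bh was at 0 in replicates 1 and 2 of the alignment-based table.

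The 3 members that were lower were Hist1h4b, Hist1h4h and Hist2h3b, and all have models under 1000 bases. Hist2h3b had 0, 1.49 and 0.18 TPM read-based. In replicate 1 that 0 stood beside 1.83 alignment-based counts, so it had no ratio there and no test was made. Hist1h4b had 0.85, 4.87 and 2.96 TPM beside 0.46, 2.01 and 1.89 read-based (log2 ratio -1.37 ± 0.27). Like Hist2h3b, Hist1h4b lies wholly within the span of another gene. That gene is 4930558J22Rik on the opposite strand, annotated as antisense, at 0.04 ± 0.08 TPM, and 223 bases of Hist1h4b lie in its exons. Hist1h4h had 2.07, 2.22 and 4.38 beside 1.37, 1.21 and 2.57 (-1.18 ± 0.09), the narrowest spread of the rescaled ratios of single members given here. On other scales both stayed lower but by less than 2-fold on average: Hist1h4b was -0.94 with TPM as deposited and -0.71 with shares of counts, and Hist1h4h was -0.75 and -0.62. Hist1h4m was lower on average, with 2.63, 4.67 and 4.83 read-based (-1.08 ± 0.57), but not 2-fold in every library. Hist2h2be was above its alignment-based level in every library, with 2.69, 2.70 and 2.14 read-based, a log2 ratio of 0.53 ± 0.20, and Hist1h2be had 0.61 ± 0.28. The exact two-sided sign-flip test over 3 libraries cannot go below p = 0.25. Of the 37 members with a ratio in every library, this exact test gave p = 0.25 for 28, among them Hist1h1d, Hist1h2be, Hist1h2bq, Hist1h4b, Hist1h4h, Hist1h4m, Hist2h2be and Hist4h4, and a larger p for 9. After Benjamini-Hochberg adjustment over the 37 exact tests the smallest p was 0.33. Hist1h2ah and Hist1h2ai, whose ratios were among the most extreme, rest on 5.94 counts or fewer in any library of the alignment-based table and had zeros, so no test was made.

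**Figure D3:**
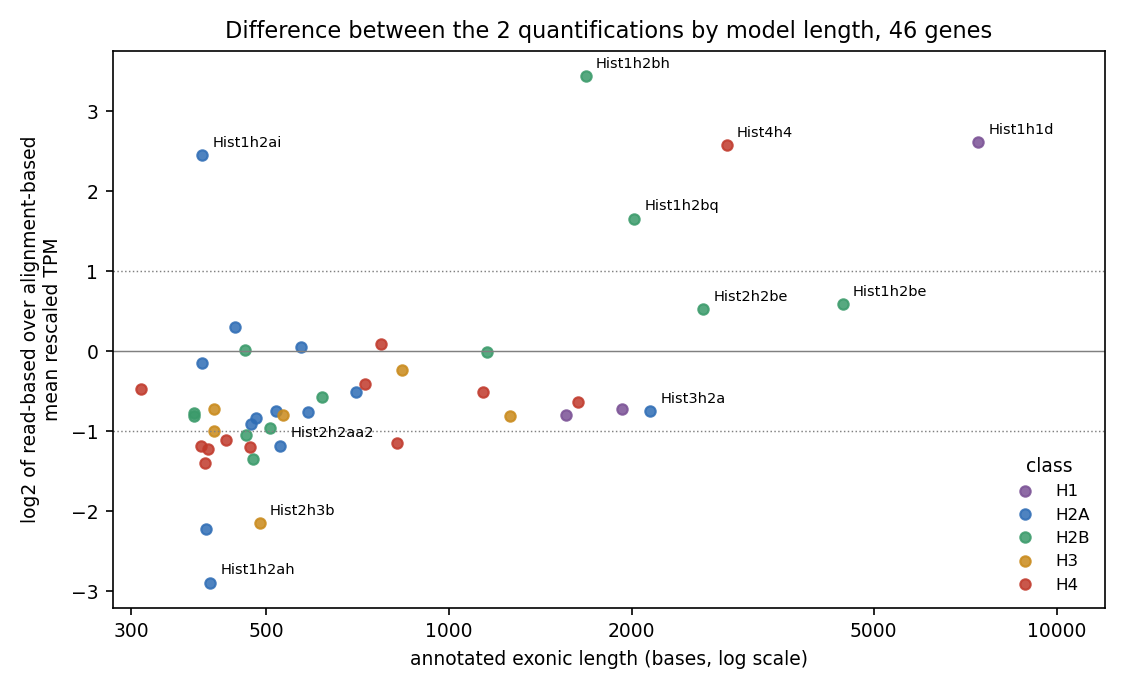
Log2 of the mean read-based over the mean alignment-based rescaled TPM of 46 histone cluster genes against annotated exonic length on a log axis, coloured by class; dotted lines mark 2-fold. Hist4h4, Hist1h1d, Hist1h2bq and Hist1h2bh stand above the upper line among models of over 1000 bases, and most shorter models lie below 0. Hist1h2ai, of 393 bases, also stands above that line, with zeros in the alignment-based table.

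Grouped by model, the short genes carried the lower read-based sums. For the 49 genes whose longest isoform is under 1000 bases the read-based sum was 0.63, 0.51 and 0.47 times the alignment-based one, and for the 18 longer ones it was 1.06, 0.79 and 0.79 times. Among examined genes under 1000 bases, the median log2 ratio was -0.81 over 33 members and 0.25 over 582 other genes with a protein-coding isoform. Among longer ones it was -0.02 over 13 members and 0.07 over 12059 other genes. Models that end under 200 bases past the stem-loop had a summed log2 ratio of -1.02 ± 0.24 (26 genes), those that run on for 200 bases or more -0.41 ± 0.23 (18 genes), and those with no stem-loop found -0.26 ± 0.14 (23 genes). Genes with over 50% of their 31-base words in another member had -0.95 ± 0.21 (38 genes) and the rest -0.36 ± 0.24 (29 genes). Length, the distance past the stem-loop and shared sequence go together in this family and cannot be told apart here.

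Many H2A and H2B genes sit head to head and share the stretch between their start sites. There are 12 such pairs, whose annotated starts lie 175 to 305 bases apart. H2A was the higher partner in every library in 2 pairs and H2B in 3. In the most abundant pair, Hist2h2ac had 15.4, 16.2 and 13.2 TPM and Hist2h2be, 238 bases away, had 1.22, 1.69 and 1.01, so the values do not overlap. In counts they were closer, at 70, 67 and 61.3 beside 37, 62 and 41, since the Hist2h2be model has 2620 bases and that of Hist2h2ac 520. In the read-based table Hist2h2ac had 98.6, 111 and 79.3 counts beside 124, 173 and 143 for Hist2h2be, so H2B was higher in counts there in every library, while Hist2h2ac stayed higher in TPM (13.8, 13.1 and 9.25 beside 2.69, 2.70 and 2.14). The other pair with more H2A was Hist1h2ap, at 3.36, 1.11 and 1.63 TPM, and Hist1h2br, at 0, 0.52 and 0. These share 93.4% and 89.5% of their 31-base words with other members, so how their reads were split is uncertain. H2B was higher in Hist1h2bg with Hist1h2ae at 0.28, 0.72 and 0.92, in Hist1h2bj with Hist1h2ag, which had 2.12 counts in replicate 2 only, and in Hist1h2bc with Hist1h2ac at 0.26, 0.30 and 0.25. The pair of testis-specific genes was at 0 on both sides.

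**Figure D4:**
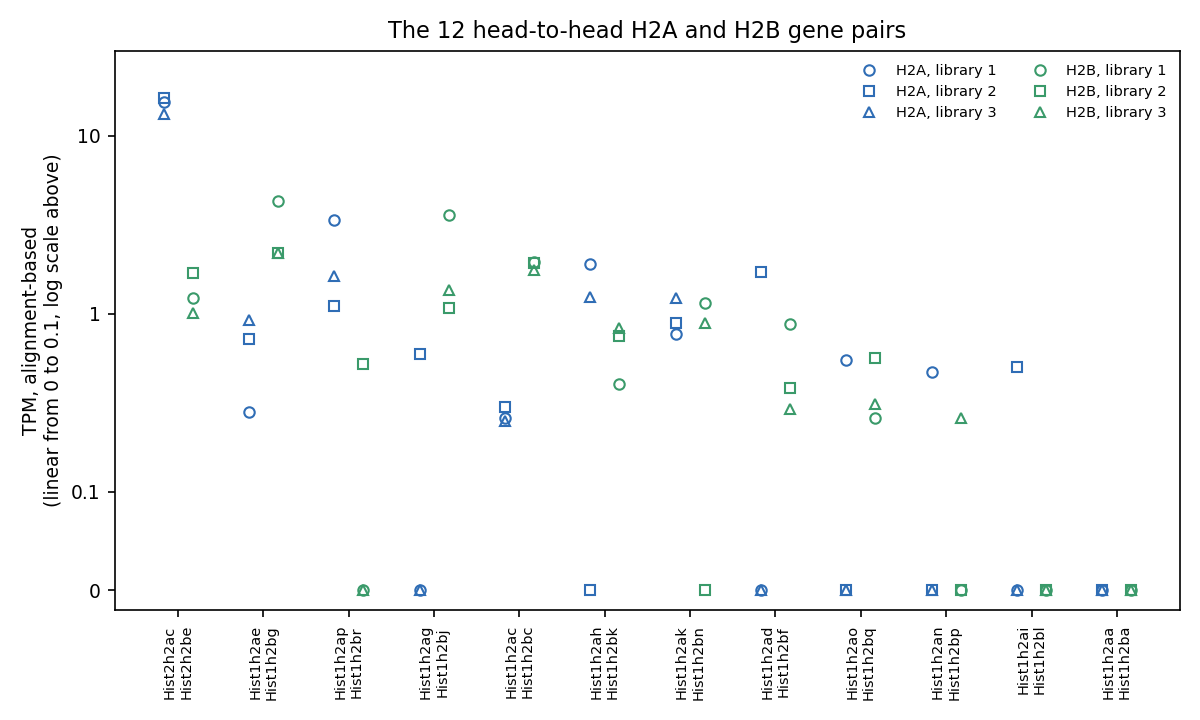
TPM of both partners of the 12 head-to-head H2A (blue) and H2B (green) gene pairs, in order of their summed level; symbols are the 3 libraries, and the axis is linear from 0 to 0.1 and logarithmic above. Hist2h2ac lies above Hist2h2be in every library, and Hist1h2bg, Hist1h2bj and Hist1h2bc lie above their H2A partners.

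The stretch between the partners of the most abundant pair is shown as the Hist2h2ac promoter, from RefSeq on GRCm38.p6 (chr3:96220831-96221130, minus strand, 250 bases before the start to 50 after it). Capitals mark the motif CCAAT, the TATA box as TATAAA and the octamer ATTTGCAT, each on either strand.
Hist2h2ac: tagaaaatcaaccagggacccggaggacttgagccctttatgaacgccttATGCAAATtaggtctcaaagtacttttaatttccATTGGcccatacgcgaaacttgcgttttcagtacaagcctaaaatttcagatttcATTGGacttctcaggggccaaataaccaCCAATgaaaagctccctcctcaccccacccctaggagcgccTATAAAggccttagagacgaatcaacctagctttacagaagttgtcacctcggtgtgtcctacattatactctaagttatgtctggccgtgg
Promoters of the same length were found for 61 of the 67 genes. CCAAT, the site known to be bound by NF-Y, stood in 52 of 61 (85.2%), beside 37.4% of all 32851 promoters in the table. It was in every H1, H2A, H2B and H3 promoter found and in 3 of 12 H4 promoters. TATAAA stood in 35 of 61 (57.4%), beside 13.6% of all. The octamer, the site known to be bound by OCT1, stood in 13 of 61 (21.3%), beside 1.74% of all, in 7 of 17 H2A and 6 of 16 H2B promoters and in no H1, H3 or H4 promoter. Partners of a pair can hold the same letters, since their windows overlap. A match is only the presence of these letters.

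Other histones and the machinery for histone mRNA gave the setting of these levels. Of 11 histones listed as replication-independent, most of them variants made also outside S phase, 6 were expressed, beside 42.2% of all genes with a protein-coding isoform. The list summed to 214, 279 and 243 TPM (245 ± 32.6), above the sum of all 67 cluster genes in every library. H3f3b, which encodes the variant H3.3, had 84.4, 114 and 82.2 (93.4 ± 17.6), beside 4.82 ± 3.14 for the 12 cluster H3 genes together. H2afy, which encodes macroH2A1, had 84.3 ± 11.9 and H2afz, which encodes H2A.Z, 30.7 ± 5.75. The linker variant H1f0 had 2.71 ± 0.24, beside 3.79 ± 1.13 for the 6 cluster H1 genes.

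Of 14 genes for histone transcription and mRNA processing, 13 were expressed, beside 42.2% of all genes with a protein-coding isoform. Slbp, which binds the stem-loop, had 14.1, 25.2 and 19.9 TPM (19.7 ± 5.53), Npat, the coactivator of histone genes in S phase, had 6.07 ± 0.52, and Lsm10 and Lsm11, parts of the U7 particle, had 4.47 ± 1.06 and 1.41 ± 0.18. Cpsf3, the nuclease that cuts histone pre-mRNA, had 16.5 ± 3.26, and Eri1, an exonuclease that trims the stem-loop end, had 11.6 ± 0.51. Zfp473, another factor of U7-dependent cleavage, was the one not expressed by this measure, at 0.17 ± 0.12. In the read-based table it had 3.09, 3.35 and 3.05 TPM, and all 14 genes were expressed. Of 20 genes of S phase, 14 were expressed, and 17 in the read-based table. Over all genes with a protein-coding isoform the shares were 42.2% and 51.8%. The highest of the list was Tk1 at 26.0 ± 9.58, followed by Pcna, the polymerase clamp, at 18.5 ± 0.97. The lowest were Rrm2, a subunit of ribonucleotide reductase, at 0.27 ± 0.29 and Cdc6, a loading factor at replication origins, at 0.24 ± 0.09.

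The macrophage label was checked against markers. All 6 macrophage markers were expressed, summing to between 794 and 1208 TPM over the libraries. Of 6 neutrophil, 4 B cell and 4 T cell markers none was expressed in the alignment-based table, and each list summed to at most 0.84 TPM in any library. In the read-based table the T cell list reached 3.50 TPM, with Cd8a expressed at 1.20, 2.33 and 1.98, and the neutrophil list reached 2.18, with Mpo at 0.70, 1.69 and 1.20.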

How the data were processed

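The member rule uses names and isoform types alone, but the members and gene lists were chosen with earlier results of these data known. Per library, the authors' deposited files are a gene and a transcript table with expected (estimated) counts and TPM (alignment-based, RSEM columns per the file headers) and a transcript table of estimated counts and TPM made from the reads (kallisto columns per the file headers), on mm10 with GENCODE M21 per the notes deposited with them. The sources used here do not state program versions or strand settings. Read-based transcripts were summed by gene. Class sums and shares are means ± SD over 3 libraries with no test; single ratios have an exact sign-flip test. For scaling, expected counts were rounded and passed to edgeR 4.0.16 (TMM) and DESeq2 1.42.0 (size factors, an alternative), used only for CPM, with a pseudocount of 0.5 and a minimum of 10 counts. Python 3.11.15, pandas 2.3.3, numpy 2.4.6 and R 4.3.3 were used. Stem-loops and shared 31-base words came from the GENCODE M21 transcripts, promoters from RefSeq (GRCm38.p6), matched by gene identifier or symbol. Named members are the 3 highest of each class in each table, the 5 highest and 5 lowest ratios at a mean TPM of at least 1, the 5 of largest spread, and 10 fixed by name; Hist1h1d, Hist1h2bh, Hist1h2bl, Hist1h2aa, Hist2h3c1, Hist2h2aa1 and the partners in pairs were named after their values were seen. The ratio calls were tested on simulated data, the sign-flip test on made-up values and the stem-loop search on a made-up sequence. Total counts were 10293545 to 17820066 per library, and 42 of 67 members had a mean TPM under 1, so single low genes are imprecise. The result of 1 further marker list is not reported here.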

Additional observations from a re-analysis of the deposited data

Results flagged for a closer look

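Hist3h2bb-ps, a pseudogene row of the same naming family that has no protein-coding isoform and is outside the 67 genes, had 9 expected counts over all libraries in the alignment-based table (5, 2 and 2 in replicates 1, 2 and 3). It had 13.6 in the read-based table (8, 3.59 and 2). More than 3 counts in a single library were found only in replicate 1 of the alignment-based table and in replicates 1 and 2 of the read-based one. The remaining rows of this kind, Hist1h2aj and Hist1h2al, had 0 in every library of both tables.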

How the results depend on the processing

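The alternatives below changed values, and for each the cause was not tested unless the setting itself gives it. The number of expressed members was 17, and it was 3 at a TPM threshold of 5, 30 with TPM rescaled over genes with a protein-coding isoform and 35 at a CPM of at least 0.1. The number detected was 24, and it was 38 at a minimum of 1 count and 13 at 10 counts. The family held 0.00650% of all counts, 0.00970% of the counts of genes with a protein-coding isoform and 0.0117% of TPM. Rescaling TPM in this way gave class sums of 12.8 for H1, 221 for H2A, 48.5 for H2B, 15.8 for H3 and 103 for H4, and a median over the class gave 0.205, 0.65, 0.473, 0.225 and 1.63 TPM. The read-based table gave 48.2 for H2A. Alternatives chosen after seeing the data were annotated lengths together with that rescaling, which gave 12.4, 162, 36.7, 10.2 and 63.0 for H1, H2A, H2B, H3 and H4, and leaving out members wholly within the span of another gene, which gave 24.0 for H2A. The log2 ratio of the quantifications turned from negative to positive with TPM as deposited for H1 (0.0054) and H2B (0.22), and with shares of estimated counts for H1 (0.69), H2B (0.78) and H4 (0.32). It stayed negative for H2A, at -0.43 with TPM as deposited and -0.38 with shares of counts, and for H4 at -0.35 with TPM as deposited. Members 2-fold higher in the read-based table numbered 4, and they were 2 at 4-fold and 1 at a minimum mean of 5. Members 2-fold lower numbered 3, and they were 8 at 1.5-fold, 0 at 4-fold, and between 4 and 8 when 1 replicate was left out, with 8 without replicate 1. The share of TPM in long isoforms was 14.4% at 1500 bases and 27.5% in the read-based table. A further 78 settings left a class, family or count value within 1 SD or 1.5 times. For the ratios of 7 single members, all 35 settings kept the direction and none could pass the test, but sizes moved: Hist1h4h was -1.18 and became -0.62, and Hist1h2bq was 1.68 and became 2.40, with shares of counts. Depth limits single genes: the deposited upper bound of TPM was a median of 28.8, 11.6 and 13.8 times the lower bound over the 67 genes in replicates 1, 2 and 3.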
